A study of Bos taurus with 14 samples.

Results

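The photoperiod by day interaction asks whether the day change in bovine mammary gene expression before calving differed between cows kept on short days and cows kept on long days. For each probe set it was the day -9 minus day -24 difference under short days (SD) minus the same difference under long days (LD). A value above 0 therefore means that expression moved further upward, or less far downward, under SD than under LD between both biopsies. All 14 arrays of the series entered it, and it was estimated for the 24016 probe sets that are not Affymetrix controls.

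The cows were Holsteins in late gestation whose milking had been stopped for the dry period, and they were assigned at random to a photoperiod that then ran through that period. LD cows had 16 h of light and 8 h of dark per day, SD cows had 8 h of light and 16 h of dark, and the lights came on at the same clock time for both. Mammary tissue was biopsied at day -24 or day -9 relative to calving, which gave 3 arrays for LD and 3 for SD at day -24, and 4 arrays for LD and 4 for SD at day -9. Whether one cow was biopsied at both days is not stated in the labels, so the p-values below measure the spread between arrays. A biopsy is bulk tissue, in which fewer cells of a type and less RNA per cell cannot be told apart.

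Light reaching the eye sets the length of the nightly melatonin signal, and long days raise circulating prolactin in cattle while short days lower it. In the dry period the gland replaces worn secretory cells, its epithelium proliferates, and towards calving it differentiates and begins to make colostrum. Cows kept on short days in the dry period are known for giving more milk in the next lactation, and prolactin receptor signalling, epithelial proliferation and mammary immunity have all been studied in connection with this.

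Values were log2 signals from robust multi-array average (RMA), with array medians between 6.43 and 6.61. The beta-casein gene CSN2, a marker of secretory epithelium, lay between 12.57 and 13.13 in the 14 arrays. On principal components, LD day -24 replicate 1 stood apart on the first (25.2% of the variance). SD day -9 replicate 1 stood apart on the third (13%). A further pair, LD day -9 replicate 4 with SD day -24 replicate 3, is called the low-signal pair below: in both arrays 280 probe sets were lower by 0.7 or more than in each of the other 12. Both of these arrays enter the interaction with a negative sign, so low values in them raise it, and the results below are given with and without them where they matter. The mean difference between 3-prime and 5-prime probe sets of the EF1A and GAPDH transcripts, a sign of RNA quality, lay between -0.102 and 0.0023 in LD and between -0.141 and 0.161 in SD at day -24. At day -9 it lay between -0.241 and -0.0437 in LD and between -0.29 and -0.124 in SD. The interaction of this difference was -0.137, and its part in the results was not tested.

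No probe set passed the test of the interaction. In the limma fit 0 of 24016 probe sets (0.0%) had an adjusted p under 0.05, and the smallest adjusted p was 0.900. At an unadjusted p under 0.05 there were 599 probe sets above 0 (2.49%) and 398 below 0 (1.66%), 997 in all. An interaction of 1 on the log2 scale means that the day -9 to day -24 ratio under SD was double that under LD. Interaction values of 1 or more were found at 257 probe sets (1.07%), and values of -1 or less at 158 (0.658%). Over all probe sets the median was -0.016, from -2.26 to 3.34, with a median standard error of 0.26. Of the 24016 probe sets 11502 were above 0 and 12514 below 0, the background for the counts of list members below. The values that follow are descriptions of genes that did not pass the adjusted test.

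Where interaction values were large, photoperiods mostly differed in opposite directions at both days. Of the 599 probe sets above 0 at an unadjusted p under 0.05, 596 had SD minus LD differences of opposite sign at day -24 and day -9, and of the 398 below 0 there were 382. Among all probe sets this share was 61.6%. Such a reversal favours a large interaction by construction, so these counts describe its form and support nothing else. In the group above 0 the median day change was -0.37 under LD and 0.36 under SD, and in the group below 0 it was 0.38 under LD and -0.26 under SD. The SD minus LD differences at day -24 and at day -9 come from separate arrays. Across the 24016 probe sets they correlated at -0.0823 (Pearson), and at -0.0292 without the 280 probe sets that were low in 2 arrays.

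**Figure D1:**
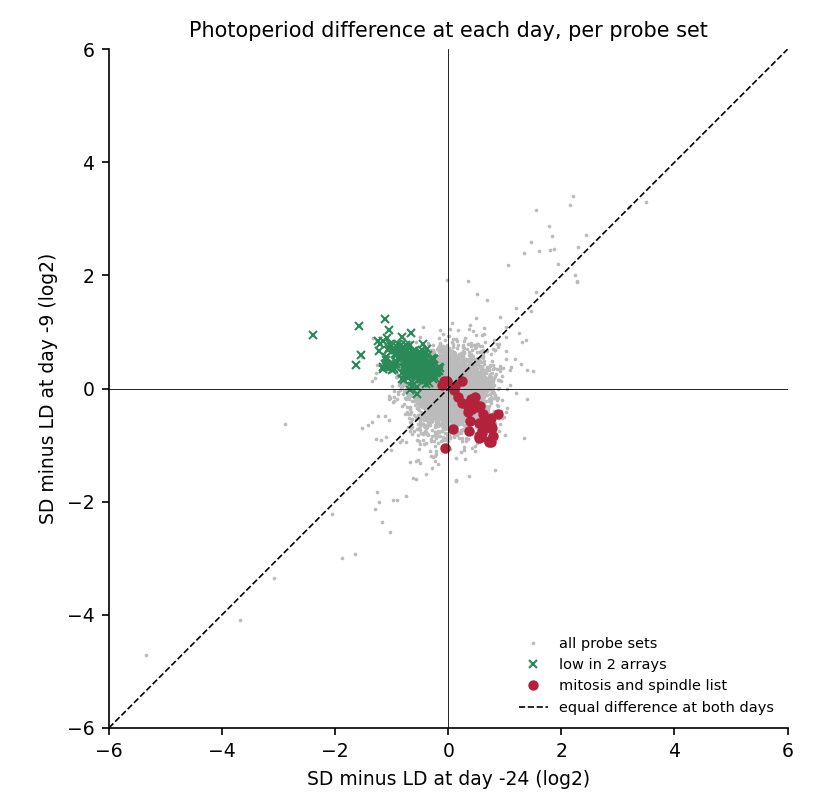
Difference between short and long days at day -24 (x axis, log2) and at day -9 (y axis, log2), 1 point per probe set for 24016 probe sets; the dashed line marks an equal difference at both days, and distance above or below it is the interaction. The 280 probe sets low in 2 arrays (crosses) lie above the line, and 38 of the 41 genes of the mitosis and spindle list (filled red circles) lie below it.

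The gene of smallest unadjusted p was EXO5, an exonuclease that acts on single-stranded DNA. Its log2 signal was 7.09, 7.17 and 7.22 in LD and 7.54, 7.67 and 7.61 in SD at day -24. At day -9 it was 7.46, 7.65, 7.46 and 7.70 in LD and 6.97, 7.28, 7.34 and 7.20 in SD. Every SD array was above every LD array at the earlier day and below every LD array at the later one. The interaction of EXO5 was -0.82 ± 0.16 (SE), with an unadjusted p of 0.000228 and an adjusted p of 0.900, and it lay between -0.87 and -0.74 when any 1 array was left out.

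MYNN, which encodes a zinc finger transcription regulator, showed the reverse arrangement. It measured 6.80, 6.79 and 6.80 in LD against 6.62, 6.37 and 5.87 in SD at day -24. At day -9 it measured 6.30, 6.20, 6.44 and 6.17 in LD against 6.68, 6.70, 6.92 and 6.69 in SD. SD arrays were thus the lower ones first and the higher ones later, with no overlap at either day, and the interaction was 0.98 ± 0.22 (SE, unadjusted p = 0.000517, adjusted p = 0.900). Without the low-signal pair the interaction of MYNN was 0.74.

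KNSTRN, a protein of the spindle and kinetochore that helps chromosomes to align, was the third by p. Its values were 7.60, 7.58 and 7.71 in LD and 8.39, 7.79 and 8.31 in SD at day -24. They were 8.00, 7.78, 8.10 and 8.13 in LD and 7.14, 7.69, 7.64 and 7.49 in SD at day -9. SD exceeded LD without overlap at the first day and lay under it without overlap at the second, and the interaction was -1.05 ± 0.24 (SE, unadjusted p = 0.000673, adjusted p = 0.900). SKA3, a subunit of the complex that couples kinetochores to microtubules, had an interaction of -1.54 ± 0.44 (SE, unadjusted p = 0.00364), and its other probe set gave -0.77.

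KCNE4, an accessory subunit of voltage-gated potassium channels, differed from these genes in form. At day -24 it was 6.33, 6.93 and 7.24 in LD and 6.86, 7.25 and 7.07 in SD. At day -9 it was 8.38, 7.86, 8.02 and 8.33 in LD and 7.35, 6.93, 6.66 and 7.15 in SD. The 4 LD arrays of day -9 stood above the other 10 arrays, which overlapped one another. Between the days LD differed by 1.31 and SD by -0.04, so the interaction of -1.35 ± 0.31 (SE, unadjusted p = 0.000831, adjusted p = 0.900) lay on the LD side. Without LD day -24 replicate 1, its lowest array, it was -1.10.

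ID2, which binds basic helix-loop-helix transcription factors and blocks their contact with DNA, had the largest positive value among the 20 genes of smallest p. It measured 6.85, 6.37 and 6.10 in LD and 5.43, 6.27 and 5.57 in SD at day -24. At day -9 LD measured 5.41, 5.79, 5.83 and 5.04, and SD measured 6.26, 6.51, 6.55 and 6.05. LD and SD overlapped at day -24 through SD replicate 2, and at day -9 the 4 SD arrays stood above the 4 LD arrays. The interaction was 1.50 ± 0.35 (SE, unadjusted p = 0.000954, adjusted p = 0.900), and a second probe set of the gene gave 0.72.

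BPI, a bactericidal protein of neutrophil granules, measured 5.90, 6.0 and 5.84 in LD and 7.28, 6.06 and 6.54 in SD at day -24. At day -9 LD measured 6.41, 6.22, 6.34 and 6.22, and SD measured 5.20, 5.58, 5.33 and 6.14. SD arrays were all above LD first and all below it later, though SD replicate 2 at day -24 and SD replicate 4 at day -9 came close to LD. The interaction was -1.45 ± 0.36 (SE, unadjusted p = 0.00150, adjusted p = 0.900), and it was -1.12 without SD day -24 replicate 1.

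**Figure D2:**
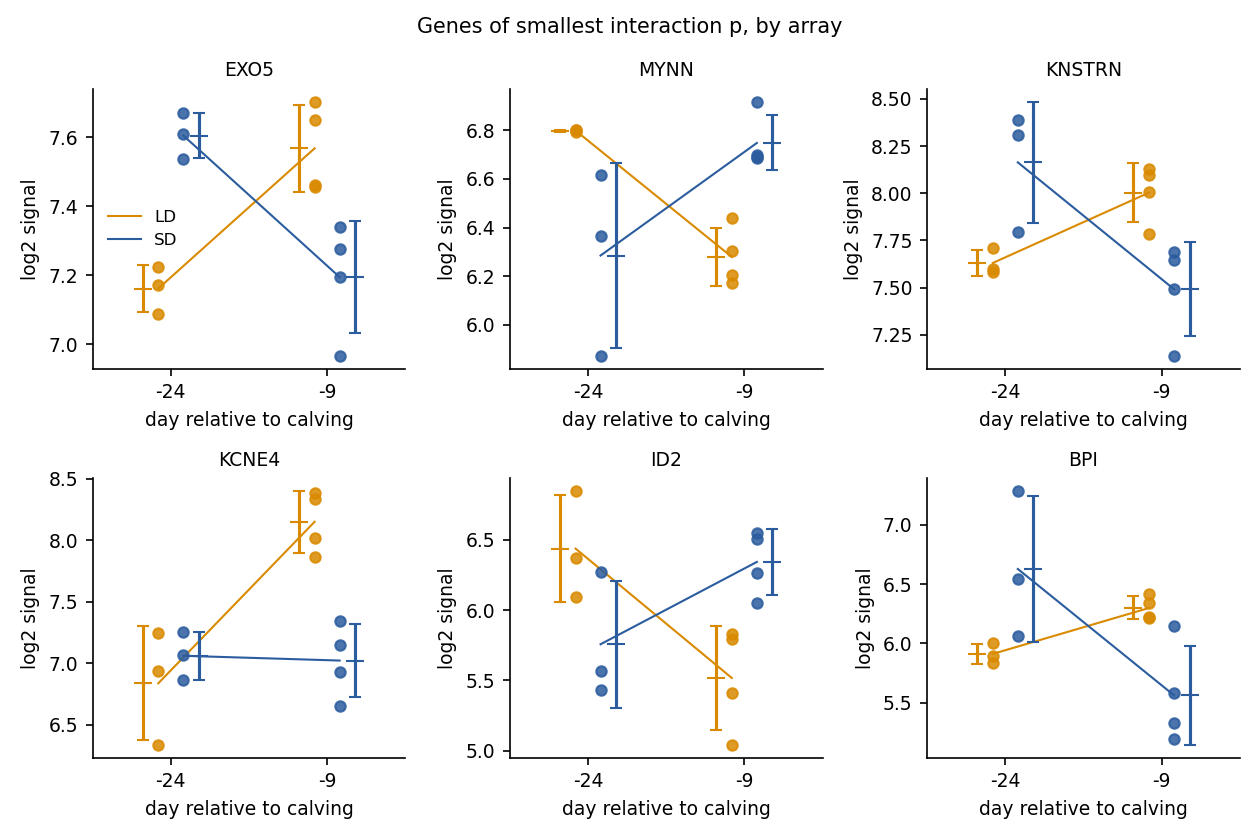
Log2 signal (y axis) of 6 genes against day relative to calving (x axis), 1 filled circle per array; horizontal marks and bars are the group mean and SD (n = 3 at day -24, n = 4 at day -9), and lines join the means of LD (orange) and of SD (blue). In EXO5, MYNN, KNSTRN and BPI the photoperiods change places without overlap, while in KCNE4 the LD arrays of day -9 alone are high, between 7.86 and 8.38.

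EED, a core subunit of Polycomb repressive complex 2, had an interaction of -1.35 ± 0.32 (SE), but 22 further probe sets carry this symbol, 12 of them with the same sign and all between -0.71 and 0.66. EAF2, a partner of the ELL elongation factors, was at -0.89, and the zinc finger gene ZSCAN16 at -0.57. The homeobox gene ADNP2 was at 0.80 and the splicing factor gene PRPF39 at 0.78. For EAF2, ZSCAN16, ADNP2 and PRPF39 the second probe set had the same sign.

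PTPN2, a tyrosine phosphatase that dampens JAK-STAT signalling, was at 0.65 ± 0.16 (SE), with 1 of its 2 other probe sets at the opposite sign. RAPGEF1, an exchange factor for the small GTPase Rap1, was at 0.70, with 1 of its 2 other probe sets below 0. The low-signal pair held its lowest arrays, and it was at 0.52 without them. LNX2, a ubiquitin ligase that binds NUMB, was at 0.73. PPM1K, the phosphatase that activates branched-chain ketoacid dehydrogenase in mitochondria, was at -0.68, while its 3 other probe sets lay between 0.03 and 0.61. HAS2, a hyaluronan synthase, was at 1.49 ± 0.41 (SE), against -0.33 and -0.10 at its 2 other probe sets. MMP14, a membrane-anchored matrix metalloprotease, was at 0.70, against -0.04 and 0.07 at its 2 other probe sets. The chosen probe sets of MMP14, PRELID1 and TMEM35A averaged 4.01, 3.05 and 4.24, under the lower quartile of every array, which lay between 4.47 and 4.73. PRELID1, which moves phosphatidic acid between mitochondrial membranes, was at -0.62, and TMEM35A, a chaperone of acetylcholine receptors, at -0.90.

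Complete separation of both photoperiods with a change of order was rare. In 8 probe sets (0.0333%) every SD array was above every LD array at day -24 and below at day -9, and in 14 (0.0583%) the order was the reverse. The named genes of the first kind were EXO5, KNSTRN, BPI, PIGF, BTBD10, BRCC3 and ZNF688. PIGF, which acts in the making of glycosylphosphatidylinositol anchors, had an interaction of -0.50 ± 0.15 (SE), and BRCC3, a deubiquitinase that cuts lysine 63 chains, one of -0.31 ± 0.13 (SE). BTBD10 was at -0.43 and ZNF688 at -0.31.

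Named genes of the second kind were MYNN, MMP14, RAPGEF1, ATRN, AGTR2, THOC2 and HAS1. AGTR2, the type 2 receptor of angiotensin II, measured 5.68, 5.05 and 5.04 in LD and 5.02, 4.75 and 4.09 in SD at day -24. By day -9 it measured 5.25, 4.41, 5.21 and 4.15 in LD and 5.30, 5.39, 5.52 and 5.44 in SD. Gaps between the groups were small at both days (5.04 against 5.02, and 5.25 against 5.30), and the interaction of 1.30 ± 0.40 (SE, unadjusted p = 0.00683) was 0.83 without the low-signal pair. Its 2 other probe sets gave -0.12 and 0.72. THOC2, a subunit of the complex that exports messenger RNA, was at 1.29 and at 0.66 without those arrays. ATRN, the attractin gene, was at 0.79, and HAS1, a second hyaluronan synthase, at 0.39. HAS1 averaged 4.06, under the lower quartile of every array. PIGF, BTBD10, BRCC3, ZNF688, ATRN, AGTR2, THOC2 and HAS1 were named after their values had been seen.

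Genes of mitosis formed the list farthest from 0. The list holds cyclins, kinases, kinesins, spindle checkpoint and kinetochore genes, with 41 measured members. Of these, 38 were below 0, 21 were at -1 or less and 10 were below 0 at an unadjusted p under 0.05, beside 0.658% and 1.66% of all probe sets, and none passed the adjusted test. The median was -1.07, beside -0.016 over all probe sets. The median SD minus LD difference of the members was 0.54 at day -24 and -0.56 at day -9. The median day change was 0.26 under LD and -0.85 under SD.

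The list score, the mean of the members in an array after centring each gene on its 14 arrays, shows which arrays carried this. At day -24 it was -0.18, -0.12 and 0.08 in LD and 0.79, -0.31 and 0.70 in SD. Then at day -9 it was 0.06, -0.14, 0.30 and 0.28 in LD and -1.43, 0.01, 0.23 and -0.27 in SD. SD replicates 1 and 3 at day -24 were above all LD arrays and SD replicate 2 was below them. At day -9 SD replicate 1 was far below every other array, and the remaining 3 SD arrays overlapped LD. SD day -9 replicate 1 is the array that stood apart on the third principal component, and its 3-prime minus 5-prime difference (-0.29) was the lowest of the 14. The part of either in the mitosis result was not tested.

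The count of mitosis genes therefore depended on few arrays, while their side of 0 did not. Without SD day -9 replicate 1 the median was -0.72, with 37 members below 0 and 6 at -1 or less. Without the low-signal pair it was -0.85, with 37 below 0, 14 at -1 or less and 0 at an unadjusted p under 0.05 (limma). When SD day -9 replicate 1 was left out together with LD day -24 replicate 1 it was -0.64, with 35 below 0 and 3 at -1 or less. Leaving out SD day -24 replicate 2 moved it the other way, to -1.49.

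AURKA, the kinase that matures centrosomes and builds the spindle, had the smallest p in the list. It measured 6.13, 6.63 and 6.70 in LD and 7.61, 6.60 and 7.88 in SD at day -24. By day -9 it measured 7.04, 6.92, 7.12 and 7.49 in LD and 6.11, 6.91, 7.14 and 6.63 in SD. SD and LD overlapped at both days, through SD replicate 2 at the first and SD replicate 3 at the second. The interaction was -1.32 ± 0.42 (SE, unadjusted p = 0.00810, adjusted p = 0.900).

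CENPF, a kinetochore protein made late in the cell cycle, had the lowest value of the list, -1.71 ± 0.72 (SE, unadjusted p = 0.0330), and -1.26 without SD day -9 replicate 1, where it measured 6.55 against 8.11 to 8.68 in the other SD arrays of that day. CCNB2, a B-type cyclin that drives entry into mitosis, was at -1.48 ± 0.64 (SE), and CDC25C, the phosphatase that activates its kinase partner, at -0.61 ± 0.24 (SE). A second probe set of AURKA gave -0.47 and one of CENPF -1.16, the same sign as the first.

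**Figure D3:**
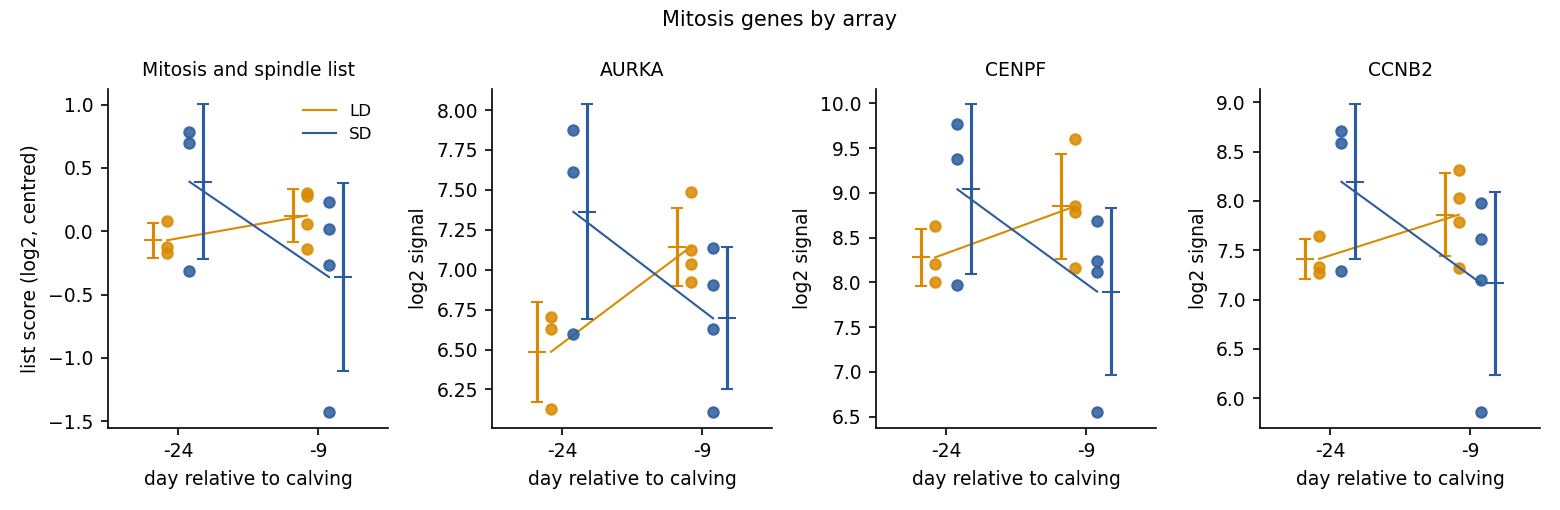
Score of the mitosis and spindle list (left panel, centred log2) and log2 signal of AURKA, CENPF and CCNB2 against day relative to calving, 1 filled circle per array, with group means and SD (n = 3 at day -24, n = 4 at day -9) and lines joining the means of LD (orange) and SD (blue). At day -24 SD replicates 1 and 3 score 0.79 and 0.70 and replicate 2 scores -0.31, and at day -9 SD replicate 1 scores -1.43.

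Genes that copy DNA lay on the same side with smaller values. Of 36 members of the DNA replication and licensing list 33 were below 0, with a median of -0.35, none at -1 or less and 1 in each direction at an unadjusted p under 0.05. These counts lay near the shares of all probe sets, 2.49% above and 1.66% below 0, and 12514 of the 24016 probe sets were below 0. ORC6, a subunit of the origin recognition complex, was at -0.57 ± 0.23 (SE), and DUT, which removes dUTP from the nucleotide pool, at -0.66 ± 0.36 (SE). PRIM2, the large subunit of primase, was at -0.36. PRIM1, the small subunit of the same enzyme, was at 0.73 ± 0.33 (SE), opposite in sign. Without SD day -9 replicate 1 the median was -0.09 with 25 below 0, and it was 0.08 when LD day -24 replicate 1 was left out as well. Cyclins and inhibitors of cell cycle entry had a median of -0.06, with 6 members above and 8 below 0. The S-phase cyclin gene CCNE2 was at -0.79 ± 0.45 (SE) and the inhibitor gene CDKN1A at -0.64 ± 0.37 (SE). The largest value of that list, 1.14, came from a probe set low in the low-signal pair.

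Epithelial markers were not all on one side of 0. The 16 luminal epithelial markers split into 8 above and 8 below 0, and the 14 myoepithelial markers into 8 above and 6 below. T and NK cell markers had a median of -0.13 and B and plasma cell markers one of -0.14. Both epithelial scores were highest in SD day -9 replicate 1, the array with the lowest mitosis score. The luminal score was 0.38 there and at most 0.18 in the other 13 arrays, and the myoepithelial score was 0.65 there and at most 0.19 elsewhere. Their part in the mitosis result was not tested.

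Innate defence genes were the second list by median. Of 40 antimicrobial, acute phase and cytokine genes 31 were below 0, 8 were at -1 or less, 1 was at 1 or more and 3 were below 0 at an unadjusted p under 0.05, with a median of -0.40 and none past the adjusted test. Of all probe sets, 0.658% were at -1 or less, 1.07% at 1 or more and 1.66% below 0 at that p. With a filter on a mean of 5 or more, 25 members remained. Of these 21 were below 0, 7 at -1 or less and 1 below 0 at an unadjusted p under 0.05 (limma), with a median of -0.45. The median SD minus LD difference was 0.01 at day -24 and -0.43 at day -9. The median day change was 0.63 under LD and 0.22 under SD.

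CXCL5, a chemokine that draws neutrophils, measured 5.15, 5.89 and 6.46 in LD and 6.25, 6.77 and 5.88 in SD at day -24. At day -9 LD measured 7.60, 6.50, 6.57 and 6.55, and SD measured 6.46, 5.82, 4.93 and 5.59. Photoperiods overlapped at the earlier day, and at the later one the 4 SD arrays lay under the 4 LD arrays. Its interaction was -1.57 ± 0.55 (SE, unadjusted p = 0.0140, adjusted p = 0.900).

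ORM1, an acute phase plasma glycoprotein, was at -0.91 ± 0.36 (SE), with 3 of the 4 LD arrays at day -9 between 4.73 and 5.28 and every other array between 3.78 and 4.21. TAP, the bovine tracheal antimicrobial peptide, was at -1.48 ± 0.66 (SE) and at -0.91 without LD day -9 replicate 1, where it measured 6.55. ORM1 and TAP averaged 4.22 and 4.23 over all arrays, under the lower quartile of every array. DEFB4A, another beta-defensin, was at -1.51 ± 0.98 (SE, unadjusted p = 0.149). Beta-defensin genes are close copies of one another, so which of them a probe set reads is uncertain. The cytokine gene TNF was at 0.43 ± 0.25 (SE).

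The 21 neutrophil markers share 8 members with the innate defence list, among them S100A8, S100A9, the cathelicidin genes and LTF, so both lists are in part one measurement. Of the 21, 19 were below 0, as were 12514 of all 24016 probe sets, with a median of -0.35. At an unadjusted p under 0.05 there were 2 below 0, BPI, described above for its small p, and NCF4, beside 1.66% of all probe sets. NCF4, a subunit of the phagocyte NADPH oxidase, was at -0.68 ± 0.22 (SE, unadjusted p = 0.00883). The neutrophil score was 0.24, -0.12 and 0.20 in LD and 0.57, -0.46 and 0.31 in SD at day -24. Then at day -9 it was 0.49, -0.10, -0.38 and 0.45 in LD and 0.24, -0.67, -0.42 and -0.35 in SD. Photoperiods overlapped at both days, and the part of neutrophil content in the innate defence values was not tested.

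Both immune medians moved with single arrays. For innate defence the median was farthest from 0 when SD day -9 replicate 1 (-0.64) or LD day -24 replicate 3 (-0.63) was left out. It was nearest to 0 when SD day -9 replicate 2 (-0.24) or SD day -24 replicate 3 (-0.25) was left out. For neutrophil markers it was -0.60 when SD day -24 replicate 2 was left out, -0.56 for SD day -9 replicate 1, -0.54 for LD day -9 replicate 3 and -0.23 for SD day -24 replicate 1. Without the low-signal pair, innate defence had a median of -0.10 with 29 of 40 below 0, and neutrophil markers one of -0.13 with 17 of 21 below 0.

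Macrophage and dendritic cell markers had a median of -0.20, with 18 of 22 below 0, and -0.20 again without the low-signal pair, with 20 below 0. PLA2G7, an enzyme that degrades platelet-activating factor, measured 6.78, 6.74 and 6.97 in LD and 6.77, 7.52 and 6.53 in SD at day -24. At day -9 LD measured 7.39, 7.87, 7.02 and 7.08, and SD measured 6.45, 6.43, 6.64 and 6.46. SD lay under LD without overlap at day -9 and overlapped it at day -24, and the interaction was -0.95 ± 0.33 (SE, unadjusted p = 0.0121, adjusted p = 0.900).

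CD68, a lysosomal glycoprotein of macrophages, was at -0.89 ± 0.40 (SE), and GPNMB, a glycoprotein of lipid-laden macrophages, at -1.12 ± 0.52 (SE). In both the SD minus LD difference was below 0 at both days (-0.22 and -1.11 in CD68, -0.39 and -1.51 in GPNMB). CTSK, the collagen-cutting cathepsin K, was at -0.44 ± 0.21 (SE). The list median moved with single arrays: it was -0.07 when SD day -9 replicate 1 was left out and -0.12 for LD day -24 replicate 3. Without LD day -9 replicate 2 it was -0.05, with 14 of 22 below 0. The list score was 0.59 in that array and at most 0.16 in each of the others.

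T and NK cell markers had 16 of 23 below 0, with the granule protein gene GNLY at -1.48 ± 0.74 (SE) and the NK receptor gene KLRD1 at 0.58 ± 0.24 (SE). Interferon response genes had a median of -0.06, 10 above and 14 below 0. HERC6, a ligase induced by interferon, averaged 4.00, under the lower quartile of every array. It was at 0.33 ± 0.14 (SE, unadjusted p = 0.0340, adjusted p = 0.900 in limma). The next by p were XAF1, which promotes apoptosis, at -0.57 ± 0.27 (SE), RSAD2 at 0.67 ± 0.33 (SE) and MX1 at 0.57 ± 0.33 (SE), the latter both antiviral, and the unadjusted p of these was 0.0560, 0.0621 and 0.109. Class I antigen presentation had a median of -0.22, which was -0.03 without the low-signal pair. LGMN, a lysosomal protease of class II antigen processing, was at -0.43 ± 0.18 (SE), in a list that split into 6 above and 7 below 0.

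Of 14 milk protein genes 11 were above 0, with a median of 0.11 and none at an unadjusted p under 0.05 in limma. The median was -0.03 when LD day -24 replicate 1 was left out and 0.37 for LD day -24 replicate 3. LPO, the antibacterial lactoperoxidase, was at 1.10 ± 1.80 (SE, unadjusted p = 0.553), with arrays from 3.17 to 10.78. It was at -0.02 without SD day -9 replicate 1, is also the innate defence gene at 1 or more, and was named after its value had been seen. CSN2 was at 0.24 ± 0.19 (SE, 95% interval -0.18 to 0.65), and the casein gene CSN1S2 at 0.48 ± 0.37 (SE). LALBA, the alpha-lactalbumin that directs lactose synthesis, measured 13.17, 12.30 and 11.71 in LD and 12.98, 11.81 and 12.22 in SD at day -24. By day -9 LD measured 13.13, 12.71, 13.01 and 12.92, and SD measured 13.38, 12.50, 12.93 and 13.10. The groups overlapped at both days, and the interaction was 0.09 ± 0.47 (SE, 95% interval -0.91 to 1.10), so day changes that differ by as much as a doubling in either direction lie near or inside the interval.

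For milk fat synthesis, 18 of 26 genes were above 0, with a median of 0.11, which was -0.08 without SD day -24 replicate 2. CD36, a fatty acid transporter of the milk fat globule membrane, was at 0.37 ± 0.31 (SE). Lactose synthesis and glucose supply had 9 of 11 genes below 0, with a median of -0.13. Its lowest p was that of PGM1, which interconverts glucose phosphates, at -0.43 ± 0.19 (SE, unadjusted p = 0.0446), with a second probe set at 0.19. HK1, the first enzyme of glycolysis in many tissues, was at -0.54 ± 0.32 (SE). Cholesterol synthesis had a median of -0.13, with EBP at -0.34 and MSMO1 at 0.36, and its median was 0.17 without the low-signal pair.

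Energy genes of mitochondria lay below 0 by small amounts. Of 70 subunits of oxidative phosphorylation 68 were below 0, with a median of -0.22, none at an unadjusted p under 0.05 in limma and none at -1 or less. NDUFB1, a subunit of complex I, was at -0.35 ± 0.18 (SE). Without the low-signal pair the median was -0.08, with 62 below 0. Fatty acid oxidation had 19 of 23 genes below 0, with a median of -0.24 and -0.10 without both arrays. There CPT2, which releases acyl groups from carnitine inside mitochondria, was at -0.42 ± 0.20 (SE), and ECI1, an isomerase for unsaturated acyl chains, at -0.67 ± 0.32 (SE). The 61 ribosomal protein genes had a median of -0.04, with 49 below 0. Of all 24016 probe sets 12514 were below 0, with a median of -0.016. Among the 16655 probe sets with a mean of 5 or more, 9535 were below 0, with a median of -0.056. Near this lay the ribosomal median, -0.04 with 1 probe set per gene and -0.059 with all probe sets of each gene averaged.

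Among endocrine genes, PRLR and IGF1 belonged to the 280 probe sets low in the low-signal pair. PRLR, the prolactin receptor, measured 10.11, 10.20 and 9.71 in LD and 9.91, 9.78 and 8.59 in SD at day -24. Then at day -9 LD measured 9.76, 9.80, 10.23 and 8.49, and SD lay between 9.77 and 10.38. SD replicate 3 at the first day and LD replicate 4 at the second were more than 1 below the remaining 12 arrays, which overlapped. The interaction of PRLR was 1.03 ± 0.54 (SE, unadjusted p = 0.0775, adjusted p = 0.900) with both arrays and 0.25 without them.

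SOCS2, a feedback inhibitor of growth hormone and prolactin signalling, was at 0.37 ± 0.20 (SE), and at 0.53 without both arrays. AKT2, a kinase downstream of the insulin and IGF receptors, was at -0.56 ± 0.31 (SE), with both of its other probe sets above 0. The prolactin and growth hormone list as a whole had a median of 0.12, and 0.02 without both arrays. IGF1, the growth factor made by mammary stroma, was at 0.65 ± 0.73 (SE) and at -0.44 without both arrays. IGFBP2 and IGFBP6, which bind IGFs outside the cell, were at -0.69 ± 0.38 (SE) and -0.42 ± 0.25 (SE). Steroid hormone response genes had a median of 0.06, with 9 of 14 above 0.

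With all 14 arrays, clock genes had the highest median of the 35 lists, 0.18, with 7 of 9 members above 0 and 1 at an unadjusted p under 0.05. Of all 24016 probe sets 11502 were above 0, and 2.49% were above 0 at that p in limma. Only 9 of the 22 listed clock genes were measured, so these counts are small. BHLHE40, a repressor in the clock that also answers to hypoxia and stress, measured 9.46, 8.91 and 9.45 in LD and 8.84, 9.09 and 7.40 in SD at day -24. By day -9 LD measured 9.02, 8.82, 9.04 and 8.37, and SD measured 9.64, 8.88, 8.74 and 9.47. Groups overlapped at both days, and SD replicate 3 at day -24 was the lowest array. Its interaction was 1.20 ± 0.51 (SE, unadjusted p = 0.0339, adjusted p = 0.900), and 0.68 without SD day -24 replicate 3. The clock median lay between 0.10 and 0.39 when 1 array was left out, the extremes falling to SD replicates 1 and 2 of day -24. Without the low-signal pair it was 0.16, below the 0.17 of cholesterol synthesis, and no member had an unadjusted p under 0.05 in limma.

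The clock repressor gene CRY1 was at 0.33 ± 0.28 (SE), the nuclear receptor gene RORA, which activates the clock, at 0.52 ± 0.42 (SE), and the period gene PER2 at 0.18 ± 0.30 (SE). In PER2 the SD minus LD difference was 0.29 at day -24 and 0.48 at day -9, above 0 at both. Serotonin and calcium genes were evenly divided, 8 above and 9 below 0. STIM1, the calcium sensor of the endoplasmic reticulum, was at -0.44 ± 0.22 (SE), and ORAI1, the calcium channel it opens, at 0.39 ± 0.26 (SE).

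Genes of secretion, stress and tissue remodelling had medians within 0.1 of 0. In the unfolded protein response and secretory pathway list 23 of 40 were above 0, with a median of 0.04. CALR, the calcium-binding chaperone calreticulin, was at 0.95 ± 0.43 (SE, unadjusted p = 0.0442) and at 0.58 without the low-signal pair. Stress and immediate early genes had a median of 0.09, with the transcription factor gene KLF4 at 0.63 ± 0.31 (SE). Involution and cell death genes had a median of -0.09, with BAX, a pore-forming protein of apoptosis, at -0.64 ± 0.24 (SE) and TIMP1, an inhibitor of matrix metalloproteases, at -0.81 ± 0.37 (SE). SLC7A1, a transporter of cationic amino acids, was at 0.64 ± 0.18 (SE, unadjusted p = 0.00413), in an amino acid list with 7 of 17 above 0.

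Markers of stroma, vessels and neighbouring tissues gave no common direction. Fibroblast and matrix markers had 20 of 27 below 0 and a median of -0.24, which was -0.48 without the low-signal pair. It was -0.36 when LD day -9 replicate 4 was left out and -0.41 for SD day -24 replicate 3. Nearer to 0, it was -0.08 for LD day -9 replicate 3, -0.09 each for SD day -9 replicate 1 and SD day -24 replicate 2, -0.12 for LD day -24 replicate 1 and -0.16 for SD day -24 replicate 1. It was -0.06 when both arrays that stood apart on principal components were left out. PDGFRA, a growth factor receptor of fibroblasts, was at -0.50 ± 0.27 (SE), ELN, the elastin gene, at -0.81 ± 0.45 (SE), and THY1, a surface protein of fibroblasts, at 0.78 ± 0.45 (SE) and 0.13 without both arrays. Adipocyte markers had a median of 0.14, and the adipocyte hormone gene ADIPOQ was at -0.15 ± 0.31 (SE). ADIPOQ averaged 3.61, under the lower quartile of every array. Endothelial markers split into 9 above and 11 below 0, with the receptor gene TIE1 at -0.56 ± 0.32 (SE).

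Single members stood apart in several lists. DES, the muscle filament gene desmin, was at -1.48 ± 0.59 (SE), with LD replicates 1 and 3 at day -9 at 8.24 and 8.38 and the other 12 arrays between 6.09 and 7.23, in a skeletal muscle list of 14 with a median of -0.10. AHSP, a chaperone of haemoglobin, was at -0.74 ± 0.30 (SE), in an erythrocyte list with 4 of 7 above 0. AQP5, a water channel of secretory epithelium, was at -1.04 ± 0.75 (SE) and at -0.61 without SD day -9 replicate 1, while the luminal keratin gene KRT18 was at -0.07 ± 0.65 (SE). The 6 skin keratinocyte markers split into 3 above and 3 below 0. AGA, which cuts asparagine-linked sugars in lysosomes, was at -0.33 ± 0.33 (SE).

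**Figure D4:**
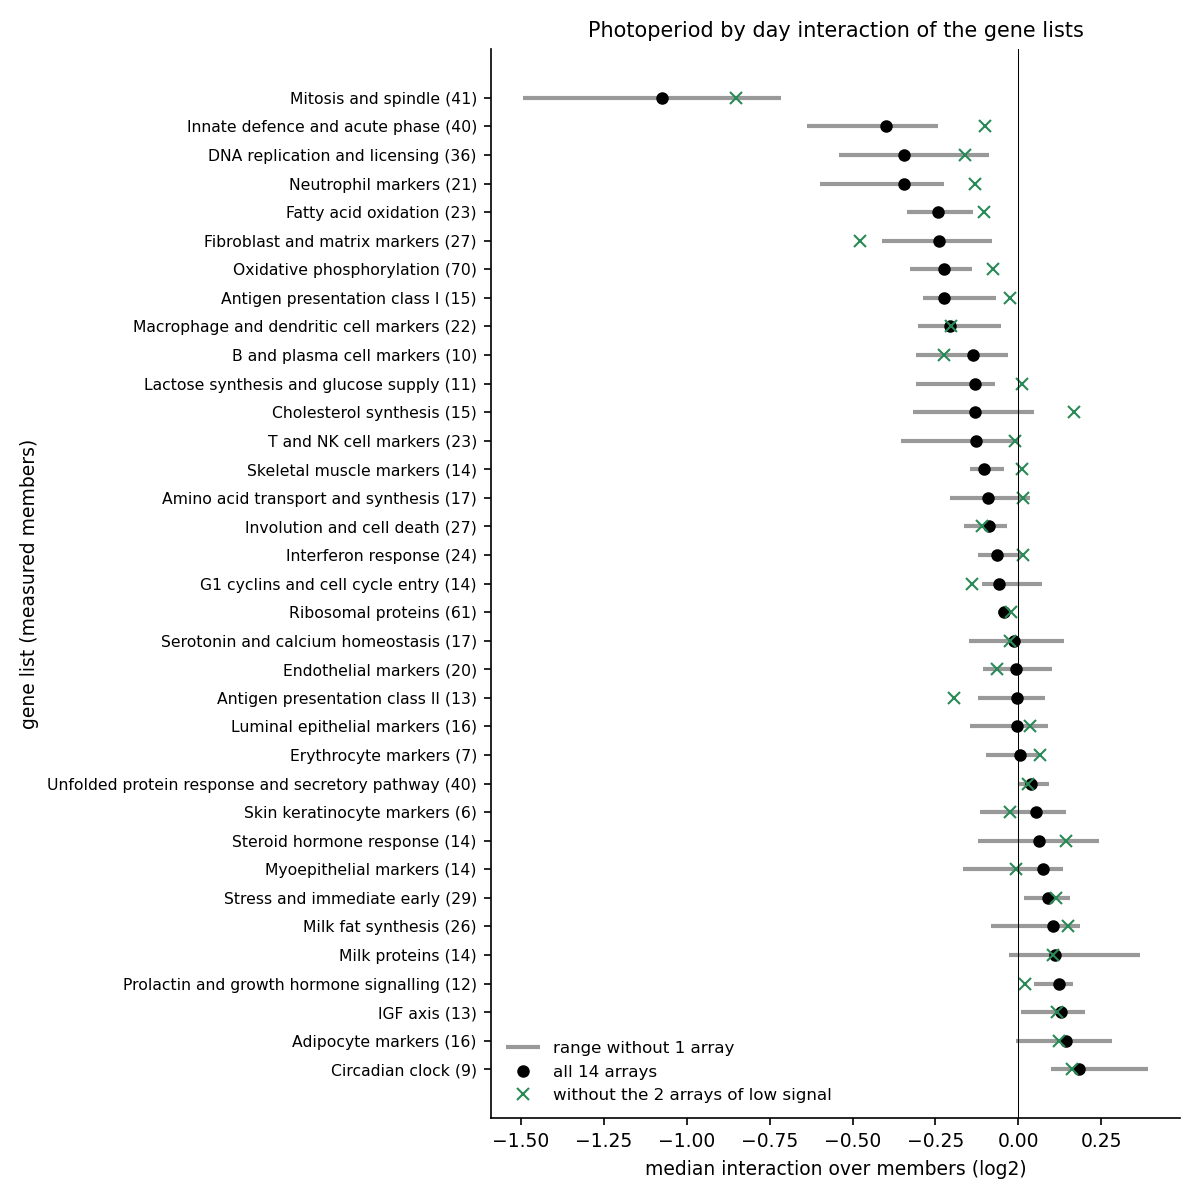
Median interaction (x axis, log2) of the measured members of 35 gene lists (y axis, number of members in brackets): filled circles are from all 14 arrays, crosses are without the low-signal pair, and grey lines are the range when 1 array was left out. The mitosis and spindle list lies at -1.07, with a range from -1.49 to -0.72, and the circadian clock list at 0.18.

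Many of the large interaction values above 0 were those of the 280 probe sets low in the low-signal pair. All 280 were above 0, which their choice by these arrays favours, with a median of 0.95 that was 0.16 when both arrays were left out. They made up 126 of the 257 probe sets at 1 or more (49%) and 0 of the 158 at -1 or less. Without both arrays 55 probe sets were at 1 or more, 32 of them among the 257. At -1 or less there were again 158, but only 94 of them were among the first 158. The median signal of the 280 was 6.22 in LD day -9 replicate 4, 6.44 in SD day -24 replicate 3 and between 7.80 and 8.07 in the other 12 arrays, while the medians of all probe sets were 6.56 and 6.57 in these 2 arrays.

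GOLPH3, a Golgi protein that shapes secretory vesicles, had the largest value of the table. It measured 9.32, 9.55 and 8.89 in LD and 7.62, 7.39 and 5.55 in SD at day -24. Then at day -9 LD measured 8.08, 8.20, 9.96 and 5.76, and SD measured 8.69, 7.88, 9.21 and 9.99. The low-signal pair held the lowest arrays, and among the others SD still lay under LD at day -24. The interaction was 3.34 ± 1.13 (SE, unadjusted p = 0.0108, adjusted p = 0.900), 1.94 without both arrays, and 0.14 at a second probe set of the gene.

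Of the 10 genes with the largest absolute values among those of mean signal 6 or more, 8 belonged to the 280. Besides GOLPH3 they were FEM1C, a ubiquitin ligase adaptor, at 2.69, KCNJ2, an inward rectifier potassium channel, at 2.09, NRBF2, an autophagy protein, at 2.08, and the kinase gene SGK1 at 2.05. Splicing regulators HNRNPL and SRSF1 were at 2.00 and 1.89, and the polarity scaffold gene LIN7C at 1.99. Without both arrays the values were 1.22 for FEM1C, 1.08 for KCNJ2, 0.10 for NRBF2 and 0.54 for SGK1. HNRNPL was then at 0.33, SRSF1 at 0.66 and LIN7C at 0.69.

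Other probe sets of the same genes were also looked at. Those outside the set are the ones that did not meet its rule, which favours smaller values in them, so the comparison is a description only. Of the genes in the set, 79 had a further probe set outside it. In these genes the median was 1.01 over the probe sets in the set and 0.32 over the others, with 40 genes at 1 or more by the first and 1 by the second, although 71 of 79 were above 0 by the second. NEFM, a neurofilament gene, and SPADH1, a spermadhesin, were the 2 genes of largest value outside the set. NEFM was at -2.26 ± 1.03 (SE, unadjusted p = 0.0466), with its arrays spread from 5.13 to 8.88. SPADH1 was at 2.25 ± 1.80 (SE, unadjusted p = 0.233), with arrays from 4.52 to 10.66 and a wide overlap of the groups.

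**Figure D5:**
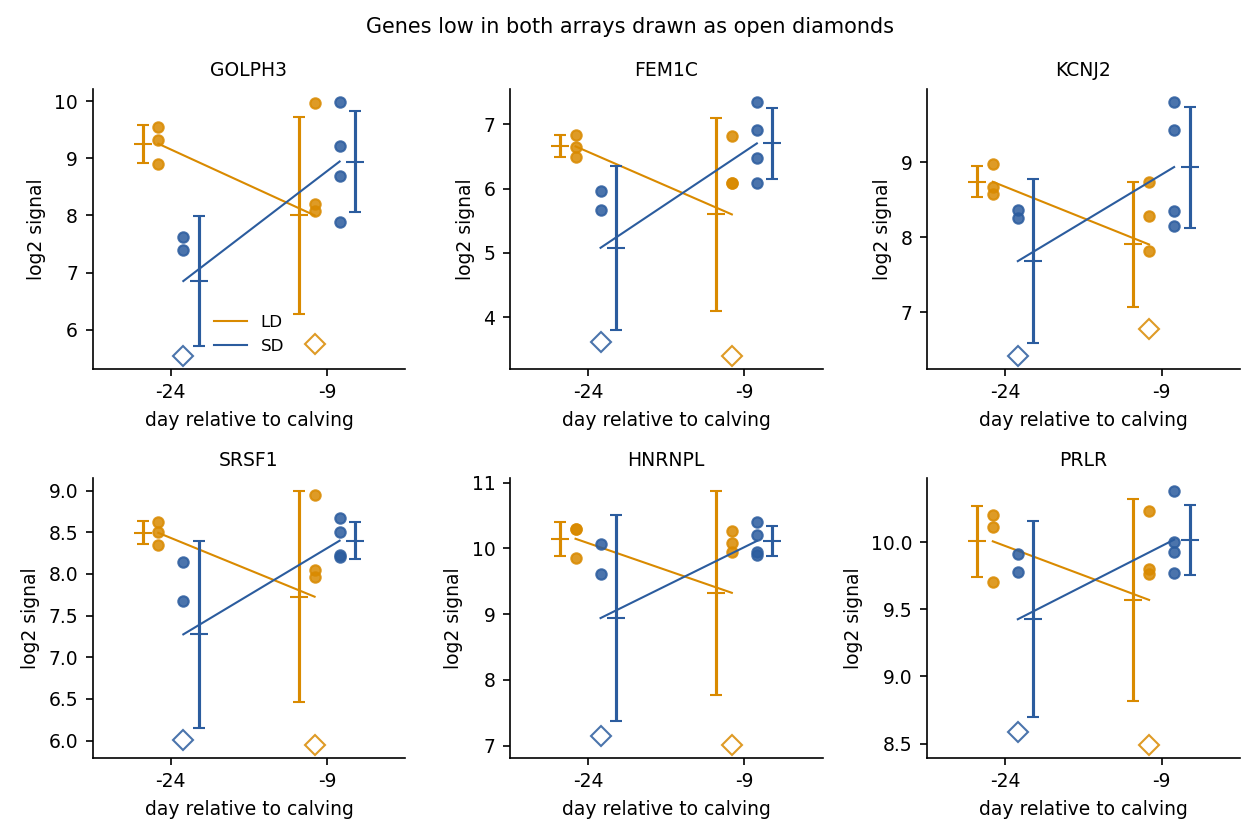
Log2 signal of 6 genes of the set low in 2 arrays against day relative to calving, 1 symbol per array; open diamonds are SD day -24 replicate 3 (blue) and LD day -9 replicate 4 (orange), with group means and SD (n = 3 at day -24, n = 4 at day -9). In each gene both diamonds are the lowest arrays, as in PRLR at 8.59 and 8.49 against 9.71 to 10.38 elsewhere.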

How the data were processed

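Log2 expression values of 14 mammary biopsies were used as deposited by the authors, 1 per probe set and array, summarised by RMA per the submitters' processing notes; software version, background setting and genome build are not given in the sources used here. Array annotation named 13292 of the 24016 tested probe sets with 1 gene symbol (9155 genes) and 86 with several, and 10638 are unnamed here. In R 4.3.3, limma 3.58.1 fitted the 4 group means over all 14 arrays, without an intensity trend. Tests of the interaction were two-sided, with Benjamini-Hochberg adjustment over all 24016 probe sets. Named genes were the 20 of smallest p, the 10 of largest absolute value at a mean of 6 or more, up to 4 members of smallest p per list, and CSN2, LALBA, PRLR, IGF1, ADIPOQ, KRT18, PER2, AGA and DEFB4A. The 35 lists (744 measured genes, 6 to 70 each) used the probe set of highest mean per gene. Members, lists and rules were chosen with earlier results of these data known. Alternatives were a filter at a mean of 5, median centring, renewed quantile normalization, an intensity trend with robust variance, array weights, replicate blocks and omitted arrays. No sequences are printed.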

Additional observations from a re-analysis of the deposited data

Results flagged for a closer look

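Among the named genes, 10 had every day -9 array above every day -24 array under one photoperiod and below every one under the other. Many of the named genes were chosen for a small interaction p, which this arrangement favours, and the share over all probe sets was not counted. The interaction was -0.82 in EXO5, -1.05 in KNSTRN, -1.35 in EED, -0.89 in EAF2 and -0.90 in TMEM35A, where signal was higher at day -9 under LD and lower under SD. It was 0.98 in MYNN, 0.73 in LNX2, 1.49 in HAS2, 0.80 in ADNP2 and 1.29 in THOC2, where the order was the reverse. The limma test of these differences gave adjusted p-values of 0.900, so none passed it. As given above, some other probe sets of EED and both others of HAS2 were opposite in sign. TMEM35A averaged under the lower quartile of every array. THOC2 is among the probe sets low in the low-signal pair, and its interaction was 0.66 without that pair.

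Of 208 pairs of a named gene and a day -9 group of 4 arrays, 22 held 1 array far from the other 3 for the spread of that group, where chance gives about 5 percent. The counts cannot be set against that share, because many of the genes were chosen for values that single arrays produce. LD day -9 replicate 4 was that array in 7 of the 22. It was low in NRBF2 (3.58), SGK1 (6.70), HNRNPL (7.01), IGF1 (4.33), THY1 (7.37) and THOC2 (6.45), genes of the set that was low in that array and in SD day -24 replicate 3, and high in the red cell gene AHSP (5.91). SD day -9 replicate 1 was low in IGF1 (5.30), ELN (6.72) and AQP5 (6.55). LD day -9 replicate 1 was high in CXCL5 (7.60), against 6.50 to 6.57 in the other LD arrays of that day. LD day -9 replicate 2 was low in EBP (9.96) and high in PIGF (7.81) and HAS1 (3.99), and LD day -9 replicate 3 was low in PRELID1 (3.07). SD day -9 replicate 2 was low in PTPN2 (9.83), SGK1 (8.96) and CD68 (6.52). SD day -9 replicate 3 was high in MYNN (6.92) and PLA2G7 (6.65), and SD day -9 replicate 4 was high in ADNP2 (6.64) and NRBF2 (7.24). Groups of 3 arrays at day -24 were not looked at in this way.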

How the results depend on the processing

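Under each of 23 alternatives, 14 of them without 1 array, 0 probe sets had an adjusted p under 0.05 in limma, with counts at an unadjusted p under 0.05 between 430 and 1728. The smallest adjusted p was 0.376, without LD day -9 replicate 3. Leaving out 1 array gave 430 (without SD day -24 replicate 3) to 1728 (without SD day -24 replicate 2) probe sets at an unadjusted p under 0.05, and leaving out the low-signal pair gave 469. Absolute values of 1 or more numbered 266 with array weights, 213 without the low-signal pair, and 233 to 721 without 1 array. Among SD arrays of day -24 it was 719, 721 and 233 when replicate 1, 2 or 3 was left out. For LD it was 700 when replicate 3 of day -24 was left out, and 633 and 275 for replicates 3 and 4 of day -9. The DNA replication median was 0.039 with array weights. It was 0.082 when the arrays apart on principal components (LD day -24 replicate 1 with SD day -9 replicate 1) were left out, a pair chosen after seeing the data.

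Of the 35 lists, 17 had a median that moved by more than the spread between replicates under at least 1 alternative (31 of 840 values), and 21 had medians on both sides of 0, among them milk proteins, milk fat synthesis, cholesterol synthesis and DNA replication. Of 104 genes named, 96 had the same sign under every alternative. Many of them were chosen for a small p or a large value in these same arrays, which favours a stable sign. Some alternatives, such as the intensity trend, also leave the interaction value itself unchanged, so this count is a description only. With array weights CD36 was at -0.050, LALBA at -0.53, IGF1 at -0.052, KRT18 at 0.55 and AGA at 0.15. Without the low-signal pair IGF1 was at -0.44 and KRT18 at 0.41. Without the pair of arrays that stand apart on principal components LALBA was at -0.43, LPO at -0.20, PER2 at -0.056, ADIPOQ at 0.052 and KRT18 at 0.051. Leaving out 1 array gave -0.30 to 0.44 for LALBA, -0.015 to 1.86 for LPO, -0.32 to 0.033 for ADIPOQ and -0.52 to 0.20 for KRT18. The cause was not tested for any of these.

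A replicate block with numbers shared by the 4 groups gave 1210 probe sets at an unadjusted p under 0.05, 415 at an absolute value of 1 or more and 0 at an adjusted p under 0.05. A random replicate block within photoperiod gave 1079, 403 and 0, with a consensus correlation of 0.0563. Array deviations of the 6 pairs that share a number and a photoperiod correlated between -0.313 and 0.331, 4 of them over 0.1. For the 13 pairs that share a number across photoperiods the range was -0.342 to 0.304, with 5 over 0.1. So few pairs cannot settle whether the numbers pair the arrays, and the main fit used no replicate block. The groups held 3 or 4 arrays, and the median standard error was 0.26. Even interactions of 1 or more could fail an adjustment over 24016 probe sets, as KNSTRN did at -1.05 ± 0.24 (SE, adjusted p = 0.900 in limma). Dim probe sets give no bound on absence. Whether array, cow and biopsy effects differ cannot be told apart here.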
